A study of Drosophila melanogaster with 6 samples.

Results

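The genes described here carry out histamine signalling and the recycling of histamine and beta-alanine in the fly eye. They were taken from a named list of 9 genes, matched by FlyBase identifier in a count table of 17753 genes: black (b), ebony (e), tan (t), Hdc, BalaT, CarT, LOVIT, ort and HisCl1. Of the 9, 8 had counts and were tested, and BalaT (listed as Balat in the annotation) was at 0 in every library. The RNA came from male Drosophila melanogaster at day 10, all carrying Repo-GeneSwitch, which drives expression in all glia once the drug RU486 is fed, and an RNA interference construct against the UDP-glycosyltransferase gene Ugt35b. RU486 flies (3 libraries) received the drug and EtOH flies (3 libraries) received its solvent, ethanol. Each library was made from 10 flies. RU486 and the knockdown come together in this design, and no library with the drug but without the construct was analysed here. The study looked for molecular changes that go with the shorter life of flies whose glia express this construct.

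Insect photoreceptors use histamine as their transmitter. After release, histamine is taken up by glia and joined by Ebony to beta-alanine, which gives carcinine, an inactive storage form. Carcinine returns to the photoreceptor, where Tan splits it into histamine and beta-alanine, and vesicles are refilled. Black makes beta-alanine from aspartate, and Hdc makes new histamine from histidine. Black, Ebony and Tan are also known from the tanning and colour of the cuticle, and mutants of each have altered body pigment.

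Total counts ran from 10156909 to 10633167 in RU486 libraries and from 11689966 to 12636787 in EtOH libraries. The knockdown target, listed as Ugt35B1, had levels of 106, 83.5 and 104 counts per 1000000 (CPM) in the RU486 libraries 1 to 3, against 145, 136 and 147 CPM in the EtOH libraries 1 to 3. The log2 fold change (RU486 minus EtOH) was -0.54 with a standard error (SE) of 0.09 (edgeR adjusted p = 0.00865), and this call was lost without EtOH replicate 3 (adjusted p = 0.0566). The labels name the tissue as head while the extraction protocol names brains. The rhodopsin transcript ninaE took 3.62% to 3.89% of the counts in RU486 libraries and 3.74% to 4.48% in EtOH libraries, so eye RNA was present in all 6. RU486 replicate 2, and to a lesser degree replicate 3, stood apart in gut transcripts. A list of 14 digestive enzyme genes summed to 41.1, 10984 and 873 CPM in RU486 replicates 1 to 3, against 37.9 to 58.9 CPM in EtOH libraries.

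Among the 8 tested genes, b fell, 0 rose and 7 did not pass an adjusted p of 0.05 in edgeR's quasi-likelihood test. Of all 8945 genes tested, 293 or 3.28% were called lower and 4.36% higher, 7.64% in all, so the single member called is reported for its own size and not as a property of the list. The groups did not overlap for b, e and t, each lower in RU486, whereas 13.5% of all tested genes were lower without overlap and 27.3% were apart in either direction. An unadjusted p under 0.05 was reached by 4 of the 8, each lower, against 10.7% of all tested genes. The log2 fold change was below 0 for 8 of 8, against 49.4% of all tested genes, although that of Hdc was close to 0. The median over the 8 was -0.22, or -0.20 without b, beside a median of 0.0028 over all tested genes. These bulk libraries cannot tell fewer cells of a type from less RNA per cell.

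**Figure D1:**
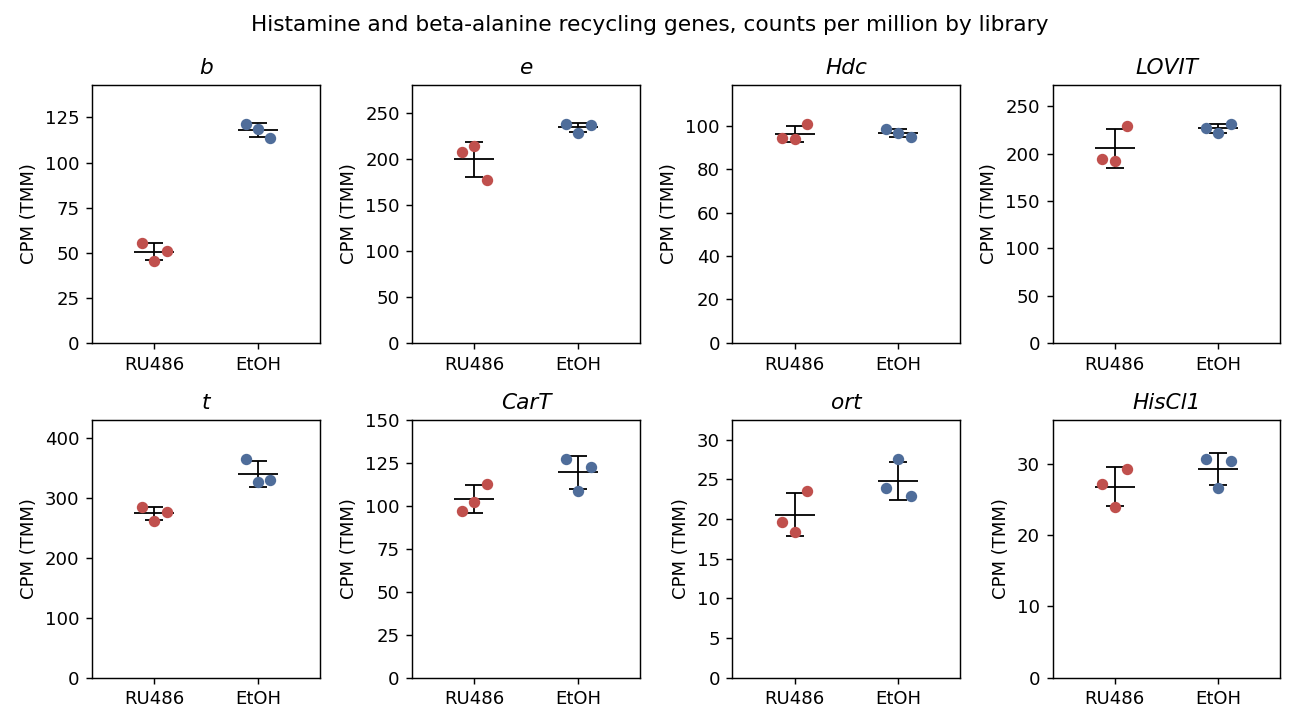
Counts per 1000000 (CPM) with TMM scaling (vertical axes, each from 0) of the 8 measured recycling genes in RU486 and EtOH libraries. Each point is 1 library, and the bars give the mean and SD of 3. RU486 libraries of b sit between 45.6 and 55.2 CPM and EtOH libraries between 114 and 121 CPM, while the groups of Hdc lie at the same level.

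The called change was in the transcript of a gene for beta-alanine synthesis, while beta-alanine itself was not measured here. The gene b (FBgn0000153, chromosome 2L, 13821248 to 13823979, plus strand, 3 merged exons) codes for the aspartate decarboxylase Black. It had 571, 474 and 519 counts in RU486 replicates 1 to 3, against 1508, 1386 and 1467 counts in EtOH replicates 1 to 3. On the CPM scale these were 55.2, 45.6 and 51.2 CPM in RU486, against 121, 119 and 114 CPM in EtOH. The highest RU486 library was at 48.5% of the lowest EtOH library. The level averaged 50.6 ± 4.82 CPM in RU486 and 118 ± 3.81 CPM in EtOH (SD, n = 3 each), and the log2 fold change was -1.22 (SE 0.08, edgeR adjusted p = 8.52e-05). This is a 2.33-fold lower level, and the 95% interval puts the RU486 level at 37.8% to 48.8% of that in EtOH. By p-value b was number 14 of 8945 tested genes, and by size number 30 of the 293 genes called lower. RU486 replicates 2 and 3 had the high digestive enzyme sums. In replicate 1 that sum was 41.1 CPM, within the EtOH range, and b was at 55.2 CPM. Leaving out RU486 replicate 2 or 3 gave a log2 fold change of -1.15 or -1.23 (edgeR adjusted p = 0.000118 and 0.00208). Each of these fits kept the other library with a high sum, so the part of gut RNA in the values of b was not tested. No other annotated gene overlaps b, so its reads were not shared in counting with a neighbour.

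Enzymes of pyrimidine breakdown give a further route to beta-alanine, and none of their genes was called. The gene pyd3, for the enzyme that releases beta-alanine, was at 57.6, 55.5 and 52.7 CPM in RU486, against 57.5, 47.2 and 46.3 CPM in EtOH (log2 fold change 0.14, SE 0.10, edgeR adjusted p = 0.481). The earlier steps, su(r) and CRMP, had log2 fold changes of 0.06 (SE 0.11) and -0.09 (SE 0.07). The groups of pyd3 overlapped.

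The carrier BalaT (FBgn0033778, chromosome 2R, 12872787 to 12875012, minus strand), known to move beta-alanine in retinal pigment cells, could not be read. Of its 1947 exonic bases, 1918 are shared with the antisense gene asRNA:CR43469, which itself had 1 count over the 6 libraries. Of 80 protein-coding genes with at least 95% of their exonic bases shared with genes on the other strand alone, 71 were at 0 in every library, compared with 808 of 6918 that overlap no gene. The 0 counts of BalaT were therefore not read as a lack of expression, and whether the overlap caused them was not tested.

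Ebony, the glial enzyme that joins beta-alanine to histamine, is coded by e (FBgn0000527, chromosome 3R, 21229839 to 21237177, minus strand). It was at 207, 214 and 178 CPM in RU486, against 238, 229 and 237 CPM in EtOH. All RU486 libraries lay below all EtOH libraries, with replicate 3 the lowest. The log2 fold change was -0.23 with an SE of 0.09 (edgeR adjusted p = 0.155), and the unadjusted 95% interval places the RU486 level at 74.1% to 97.6% of EtOH. With this interval a fall of the size seen in b lies outside the range for e.

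Tan, the photoreceptor hydrolase that splits carcinine, is coded by t (FBgn0086367, chromosome X, 9217655 to 9223257, minus strand). It had the highest counts of the list, 2721 to 2944 in RU486 libraries and 3811 to 4536 in EtOH libraries. The levels were 284, 262 and 276 CPM in RU486, against 365, 326 and 329 CPM in EtOH, with no overlap. Its log2 fold change of -0.31 (SE 0.08) missed the threshold at an edgeR adjusted p of 0.0568, and it crossed the threshold in 6 of 14 alternative analyses, among them the DESeq2 Wald test (adjusted p = 0.00566). In the other 8 the adjusted p reached up to 0.306. The 95% interval places t at 70.7% to 91.8% of its EtOH level.

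CarT (FBgn0032879, chromosome 2L, 20727151 to 20730282, minus strand) codes for the transporter that returns carcinine to photoreceptors. It was at 97.3, 102 and 113 CPM in RU486, against 127, 109 and 123 CPM in EtOH. The groups overlapped, since RU486 replicate 3 was above EtOH replicate 2, and the log2 fold change was -0.20 with an SE of 0.08 (edgeR adjusted p = 0.194). It was called when EtOH replicate 2 was left out (-0.26, adjusted p = 0.0450) and in no other alternative.

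Hdc (FBgn0005619, chromosome 2R, 10237988 to 10246077, plus strand), the histidine decarboxylase gene, was level between the groups. It was at 94.4, 93.8 and 101 CPM in RU486, against 98.5, 96.6 and 94.7 CPM in EtOH, and both groups averaged near 96 CPM (96.3 ± 3.82 CPM in RU486 and 96.6 ± 1.91 CPM in EtOH, SD, n = 3 each). The log2 fold change was -0.0049 with an SE of 0.06 (edgeR adjusted p = 0.976), and its 95% interval covers 90.6% to 109.6% of the EtOH level. With its lowest library at 976 counts, a change of the size seen in b would have been well outside this interval. Of its 3826 exonic bases, 165 are shared with genes on the other strand.

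LOVIT (lovit in the annotation, FBgn0267429, chromosome 3L, 25236940 to 25670980, minus strand) is known as a transporter needed to load histamine into synaptic vesicles. It was at 194, 193 and 230 CPM in RU486, against 227, 222 and 231 CPM in EtOH. RU486 replicates 1 and 2 lay below every EtOH library and replicate 3 lay among them, for a log2 fold change of -0.14 and an SE of 0.09 (edgeR adjusted p = 0.401).

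The receptors ort and HisCl1, histamine-gated chloride channels, had the lowest counts and the widest errors. The gene ort (FBgn0003011, chromosome 3R, 19659748 to 19663672, plus strand), the channel of lamina neurons that receive the photoreceptor signal, was at 19.6, 18.4 and 23.6 CPM in RU486, against 23.9, 27.6 and 22.9 CPM in EtOH. The groups overlapped by the highest RU486 and the lowest EtOH library, and the log2 fold change was -0.27 with an SE of 0.12 (edgeR adjusted p = 0.233). HisCl1 (FBgn0037950, chromosome 3R, 11787176 to 11789393, plus strand), known from lamina glia and colour-sensing photoreceptors, was at 27.2, 23.9 and 29.3 CPM in RU486, against 30.7, 26.7 and 30.4 CPM in EtOH. Its log2 fold change was -0.13 with an SE of 0.10 (edgeR adjusted p = 0.531), and 101 of its 1872 exonic bases are shared with Sbf on the other strand. The lowest libraries held 191 counts of ort and 249 of HisCl1, which alone give counting errors of 7.24% and 6.34%, compared with 1.92% for t. The 95% intervals place ort at 68.3% to 100.4% and HisCl1 at 78.0% to 107.6% of EtOH, so a fall of b's size lies outside both, and so does any fall below 68.3% for ort or 78.0% for HisCl1.

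**Figure D2:**
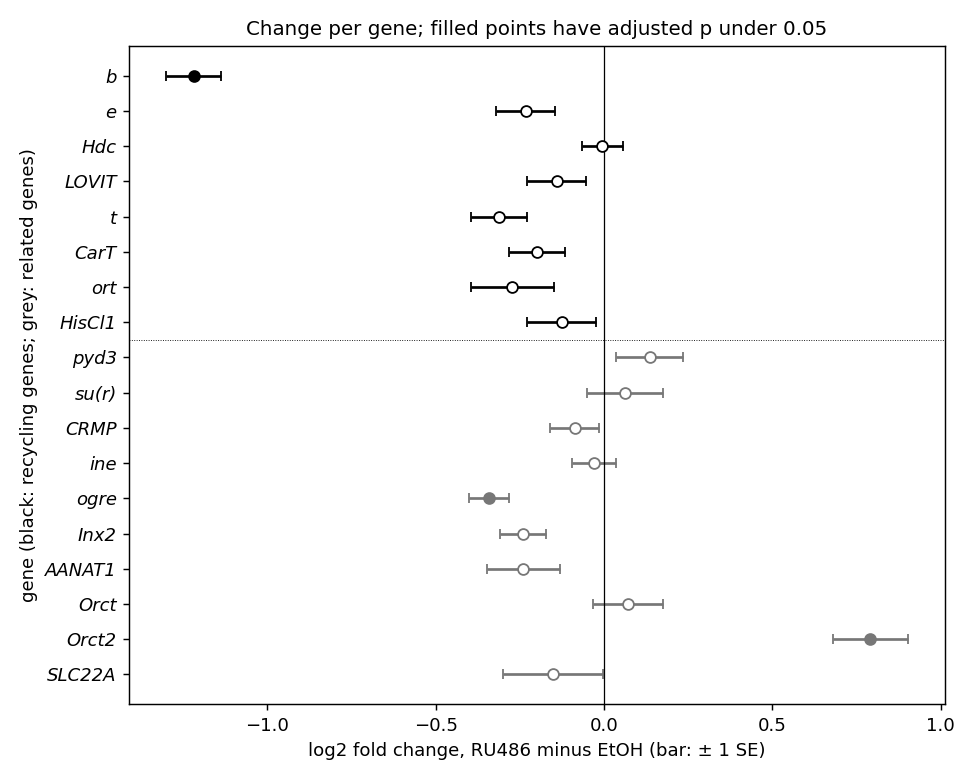
Log2 fold change (RU486 minus EtOH, horizontal axis) with bars of 1 SE for the 8 tested recycling genes (black) and 10 tested related genes of beta-alanine and histamine handling (grey). Filled points passed an adjusted p of 0.05: b at -1.22, ogre at -0.34 and Orct2 at 0.79.

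The change of b was then set against each other member within the same library, which removes library scaling. There were 0.266, 0.213 and 0.288 counts of b per count of e in RU486, against 0.510, 0.519 and 0.479 in EtOH. Both are enzymes of the beta-alanine branch, and their ratio averaged 0.256 ± 0.039 in RU486 and 0.502 ± 0.021 in EtOH (SD, n = 3 each). The counts of b per count of Hdc averaged 0.526 ± 0.052 in RU486 and 1.22 ± 0.016 in EtOH. For all 7 partners the RU486 and EtOH ratios of b did not overlap, and the difference in log2 ratio ran from -1.22 (against Hdc) to -0.91 (against t). These ratios share b as numerator, chosen because it was called, so they describe its fall again against other scales and carry no test. The other ratios were those of ort to HisCl1, t to e and CarT to t, and each overlapped between the groups. There were 0.764 ± 0.043 counts of ort per count of HisCl1 in RU486 and 0.855 ± 0.154 in EtOH (two-sided exact permutation p = 0.5, or 0.556 after Benjamini-Hochberg adjustment over the 10 ratios computed). That adjustment includes the 7 ratios of b, and 3 against 3 libraries allow no exact p under 0.1.

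**Figure D3:**
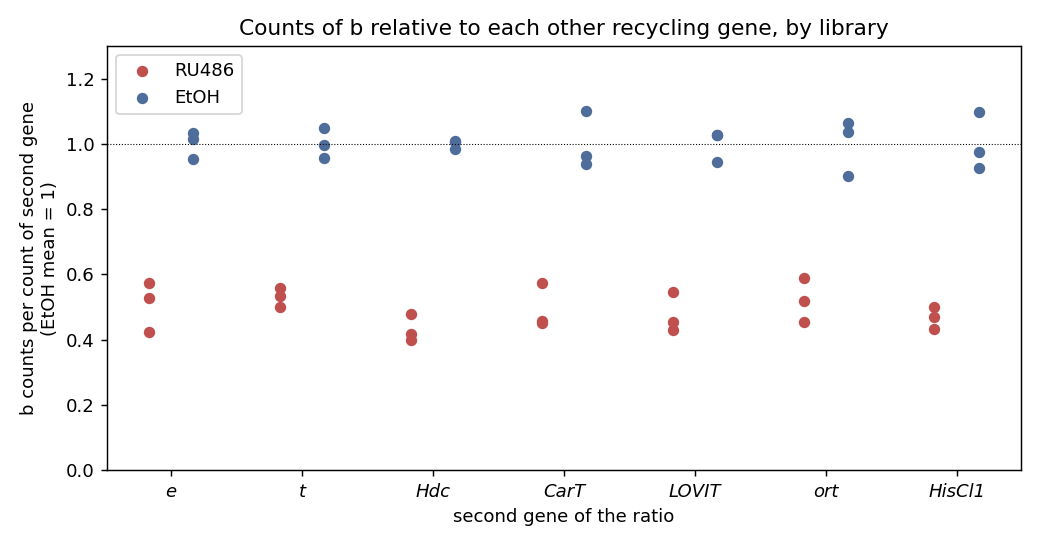
Counts of b per count of each other recycling gene (horizontal axis) by library, divided by the EtOH mean of that ratio, which is the dotted line at 1. Red points are RU486 and blue points EtOH libraries, and the groups do not overlap for any of the 7 partners, which share the counts of b.

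Per kilobase of exon, the order of the levels changed at b. In RU486 libraries the order was t (139 CPM per kilobase), LOVIT (105), e (63.5), CarT (41.3), Hdc (25.2), b (23.7), HisCl1 (14.3) and ort (9.51). In EtOH libraries it was t (172 CPM per kilobase), LOVIT (115), e (74.7), b (55.2), CarT (47.5), Hdc (25.3), HisCl1 (15.6) and ort (11.5). Thus b held place 6 in RU486 and place 4 in EtOH. The only neighbours whose libraries overlapped were Hdc and b in RU486, at 24.5 to 26.3 and 21.3 to 25.8 CPM per kilobase. Transcripts of t stood above those of e in both groups, but these bulk libraries do not show which cells either came from. Lengths are unions of annotated exons, so an order between genes close in level depends on which transcripts are in use.

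Other eye transcripts were examined because several members (t, CarT, LOVIT, Hdc and, in colour-sensing cells, HisCl1) are known from photoreceptors. Of 26 photoreceptor markers, 23 were tested, 1 rose, 1 fell and 21 did not pass, and Arr2, inaF-B and ninaA, which lie inside other genes, were at 0. At an unadjusted p under 0.05 there were 10 of the 23, of which rdgA and laza were higher in RU486 and the others lower. Of all tested genes, 10.7% were lower at this cut. The number called depended on the libraries and the test, with 9 (2 higher, 7 lower) without EtOH replicate 2, 5 (1 higher, 4 lower) in the DESeq2 Wald test and 0 without EtOH replicate 1. Their median log2 fold change was -0.15, with 19 of 23 below 0, and their summed level was 75494 to 79664 CPM in RU486 and 79202 to 91959 CPM in EtOH. The phosphatase gene laza, which acts in the phospholipid cycle of phototransduction, rose to 206 ± 35.6 CPM in RU486, against 116 ± 19.7 CPM in EtOH (SD, n = 3 each, edgeR adjusted p = 0.0116). That call was lost without EtOH replicate 1 (adjusted p = 0.0698). Ggamma30A, a subunit of the phototransduction G protein, fell by 0.20 on the log2 scale (edgeR adjusted p = 0.0496) and was called in 4 of 14 alternatives. The main rhodopsin gene ninaE stood at -0.063 (SE 0.07, edgeR adjusted p = 0.653), and at 0.015 without EtOH replicate 1 and 0.043 with photoreceptor scaling.

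Measured against the summed photoreceptor counts of the same library, b and t remained apart between the groups and e overlapped. The gene ninaE made up much of that sum, so the scale rests largely on 1 gene. It gave 38204 of 78275 CPM in RU486 replicate 1 and 44894 of 91959 CPM in EtOH replicate 1. There were 70.5, 60.4 and 64.3 counts of b per 100000 photoreceptor counts in RU486, against 132, 149 and 144 in EtOH. For t the values were 352 ± 9.82 in RU486 and 407 ± 9.53 in EtOH (SD, n = 3 each), still without overlap (exact permutation p = 0.1, the smallest that 3 against 3 libraries allow). For e they were 257 ± 30.8 in RU486 and 282 ± 20.9 in EtOH, and for LOVIT 264 ± 21.5 in RU486 and 272 ± 22.9 in EtOH, with overlap in both. For Hdc they were 124 ± 2.96 in RU486 and 116 ± 7.61 in EtOH. With photoreceptor counts as the scale for the whole edgeR fit, b was at -1.12 (adjusted p = 7.91e-05), t at -0.21 (adjusted p = 0.306) and the median of the 8 at -0.11, while the median of all genes moved by 0.0997.

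Eye pigment genes were described because BalaT works in pigment cells. Of 8 such genes 5 were tested, 2 fell, 0 rose and 3 did not pass, with a median log2 fold change of -0.31, and w and st, which lie inside other genes, were at 0. Pdh, the photoreceptor dehydrogenase of retinal pigment cells, was at 1260, 1211 and 1263 CPM in RU486, against 1847, 1601 and 1585 CPM in EtOH (log2 fold change -0.43, SE 0.08, edgeR adjusted p = 0.00888). It narrowly lost its call without RU486 replicate 2 (adjusted p = 0.0530). The gene cd (cardinal), of brown eye pigment synthesis, was at 16.7, 16.4 and 16.0 CPM in RU486, against 25.1, 25.1 and 22.9 CPM in EtOH (edgeR adjusted p = 0.00605), and it was called in all 14 alternatives. The groups did not overlap for either gene.

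Of 11 related genes of beta-alanine and histamine handling, 10 were tested, 1 rose, 1 fell and 8 did not pass, with a median log2 fold change of -0.06. The gap-junction genes ogre (innexin 1) and Inx2 act in lamina glia, where they are known to be needed for histamine recycling. The gene ogre was at 127, 126 and 127 CPM in RU486, against 161, 158 and 163 CPM in EtOH (log2 fold change -0.34, SE 0.06, edgeR adjusted p = 0.00888). Without RU486 replicate 2 its adjusted p was 0.0609, and with photoreceptor scaling 0.203. Inx2 was at 147, 154 and 145 CPM in RU486, against 169, 184 and 174 CPM in EtOH, also without overlap but with an edgeR adjusted p of 0.0704. The inebriated gene ine, a transporter linked to histamine in the visual system, differed by less than its error (log2 fold change -0.03, SE 0.07). Orct2, an organic cation transporter of the SLC22 family to which BalaT and CarT also belong, rose to 22.4 ± 2.21 CPM in RU486, against 12.9 ± 0.667 CPM in EtOH (SD, n = 3 each, edgeR adjusted p = 0.00303), and it was called in all 14 alternatives. The gene w, inside kirre, was not measured.

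Since b, e and t also serve the cuticle, the tanning genes were read beside them. Of 9 genes 8 were tested, 1 fell, 0 rose and 7 did not pass, with a median log2 fold change of -0.16, and y, inside another gene, was at 0. The called gene was yellow-f2, a dopachrome conversion enzyme, at 60.2 ± 4.80 CPM in RU486 and 76.6 ± 2.31 CPM in EtOH (SD, n = 3 each, edgeR adjusted p = 0.0331). Leaving out a library removed this call in 5 of 6 cases, and it remained without EtOH replicate 2. Dopamine synthesis genes did not pass: ple, for tyrosine hydroxylase, had a log2 fold change of -0.03 (SE 0.13) and Ddc one of -0.23 (SE 0.08, edgeR adjusted p = 0.148). Pu, of the same list, went the other way, higher in RU486 without overlap (0.30, SE 0.10, edgeR adjusted p = 0.122). The DESeq2 Wald test and the replicate block each called 1 gene of the list higher and 1 lower.

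Markers of the cells on each side of the synapse were read in the same way. Of 7 transcription factor genes of lamina neurons, zfh1, also known from muscle and other tissues, rose (log2 fold change 0.53, SE 0.11, edgeR adjusted p = 0.0208), 0 fell and 6 did not pass, with a median of -0.04. The call of zfh1 was lost without EtOH replicates 1 or 3 (adjusted p = 0.113 and 0.119) or RU486 replicates 1 or 3 (0.110 and 0.0574). Of 10 other ligand-gated anion channel genes, relatives of ort and HisCl1, 8 were tested (median 0.06) and edgeR called 0, with 2 at an unadjusted p under 0.05, CG8916 at -0.36 (SE 0.13) and Lcch3 at -0.24 (SE 0.08). DESeq2's Wald test called 0 of them. The list had 1 gene called higher without RU486 replicate 1 and 3 without EtOH replicate 2. The acid-gated channel gene pHCl-2 read 0, 29.7 and 0.197 CPM in the 3 RU486 libraries, against 0 to 0.161 CPM in EtOH, and so was high in the library with the highest digestive enzyme sum.

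Of 13 glial markers, 10 were tested, 3 fell, 3 rose and 4 did not pass (median 0.03), and moody, alrm and Tret1-1, inside other genes, were at 0. Their summed level was 4166 to 4550 CPM in RU486 and 4230 to 4354 CPM in EtOH. Gs2, a glutamine synthetase, made up much of that sum, at 2054 ± 121 CPM in RU486 and 2061 ± 85.2 CPM in EtOH (SD, n = 3 each), so the sum says little of the other markers. The part of glial RNA in the values of b was not tested. Those that fell were wrapper (-2.10), Gat (-1.92) and zyd (-0.89), and those that rose were Mdr65 (0.95), bdl (0.73) and loco (0.35). Of 7 tested neuronal markers and of 10 muscle markers edgeR called 0, with medians of -0.13 and -0.01. At an unadjusted p under 0.05 there were 2 and 0, and the DESeq2 Wald test called 1 and 0. Some of these genes, but not all, were high in EtOH replicate 2. In EtOH replicates 1 to 3 para was at 453, 1129 and 483 CPM and sls at 452, 721 and 425 CPM. Mlc1 was at 174, 169 and 172 CPM. Such spread widens the errors (SE 0.31 for para), so the lack of calls does not show equal levels. Of 7 tested fat body markers 5 fell and 1 rose, with a median of -1.66. Of 8 tested digestive enzymes 2 rose, with a median of 7.05, and the part of either tissue in the values of b was not tested.

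**Figure D4:**
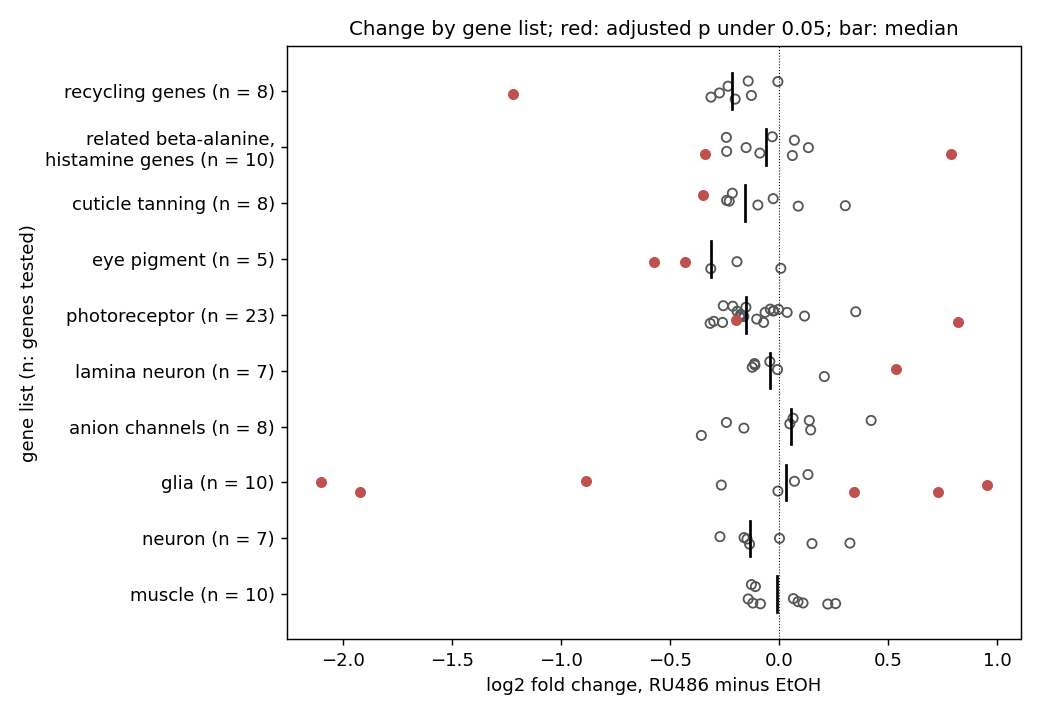
Log2 fold change (RU486 minus EtOH, horizontal axis) of each tested gene, grouped by list, with the median as a black bar. Red points passed an adjusted p of 0.05; b at -1.22 lies apart from the other recycling genes, which lie between -0.31 and -0.0049. Fat body and gut lists are not drawn.

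The genes whose profile over the 6 libraries was closest to that of b were sought among 8439 tested genes, by the root-mean-square difference in log2 CPM after centring each gene on its mean. The closest were Pcyt2 (0.046), an enzyme of phosphatidylethanolamine synthesis, Csas (0.074), which activates sialic acid, and Nplp3 (0.080), annotated as a neuropeptide precursor. Pcyt2 was at 40.2, 36.0 and 40.5 CPM in RU486, against 93.8, 92.8 and 91.7 CPM in EtOH. Csas was at 19.2, 14.2 and 15.7 CPM in RU486, against 40.0, 38.2 and 40.2 CPM in EtOH. Both shared with b a low RU486 replicate 2 and little spread among EtOH libraries. The exons or spans of Pcyt2 and Csas overlap a gene each, Pcyt1 and schuy, and their counts may rest on the unshared part. This measure describes likeness only and carries no test.

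The call of b held in all 14 alternative analyses, including each of the 6 that left out 1 library, where its log2 fold change ranged from -1.30 to -1.15 and its adjusted p reached at most 0.00298. No other member was called in more than 6 of the 14.

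**Figure D5:**
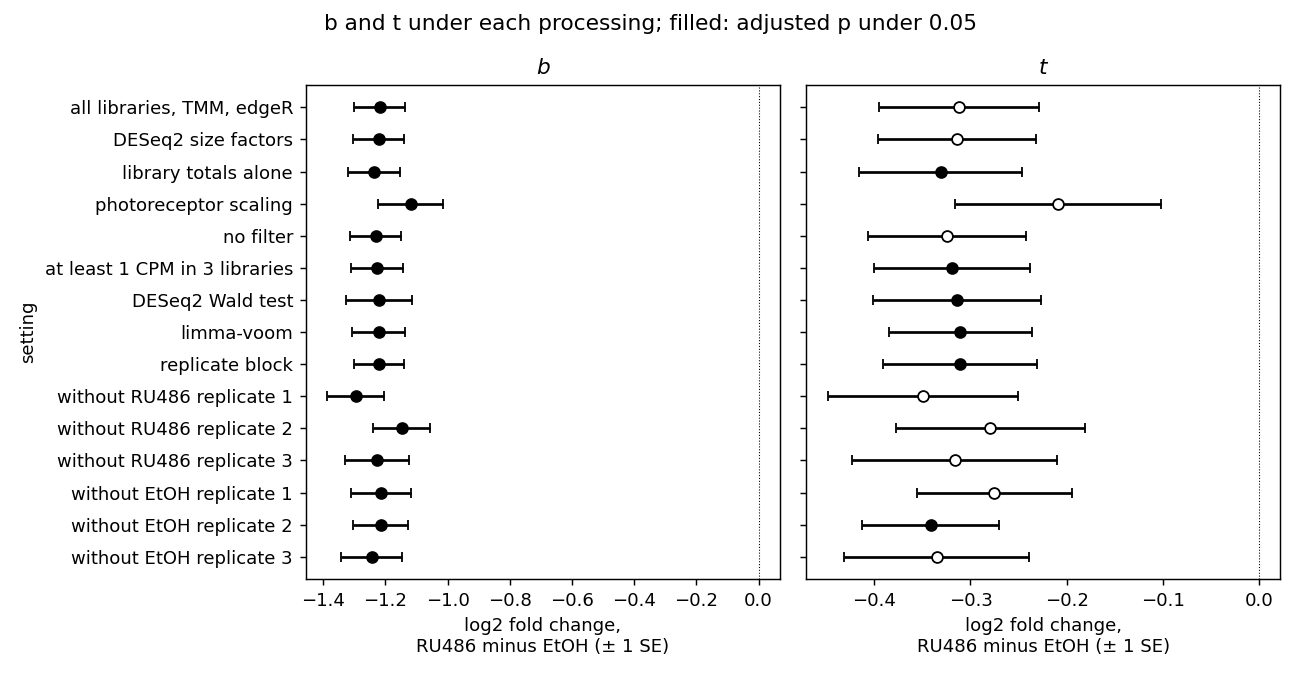
Log2 fold change (RU486 minus EtOH, horizontal axes) with bars of 1 SE for b and t under each processing (rows). Filled points passed an adjusted p of 0.05: b passed in every row, whereas t passed in 6 of 14 alternatives and missed with all libraries (0.0568).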

How the data were processed

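The authors deposited read counts per FlyBase gene, 1 column per library. The column headers read COUNT and name no normalisation. Per the labels' protocols, 500 ng of total RNA from 10 male flies entered a stranded mRNA kit. The submitters' processing notes name build BDGP6. Aligner, counter, strand setting and annotation version: not given in the sources used here. Symbols were matched by identifier for 17626 of 17753 rows, and BalaT, LOVIT, CdsA, CG7589 and CG12344 through their current symbols. Coordinates, 1-based, and lengths are from Ensembl release 115, BDGP6.54.

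Counts were tested with edgeR 4.0.16 in R 4.3.3 (filterByExpr with a minimum count of 10, TMM factors, two-sided quasi-likelihood test, Benjamini-Hochberg adjustment over 8945 genes, threshold 0.05). The SE is the log2 fold change over the square root of F, and 95% intervals use the fit's t quantile. CPM uses TMM factors. The fit was tested on simulated data. Alternatives used DESeq2 1.42.0 and limma 3.58.1. No libraries were repeats of each other (chi-square per degree of freedom 8.03 to 37.0). The labels do not say that libraries came from separate cultures, so the p-values reflect only how far these samples spread, which may be technical.

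Members and lists were chosen with earlier results of these data known. The text names every member, up to 4 called genes per related list (or 2 with the smallest p), ninaE, Ugt35B1 and the 3 genes most like the member with the smallest p. Other genes (Inx2, pyd3, su(r), CRMP, ine, ple, Ddc, Pu, rdgA, pHCl-2, bdl, loco, Gs2, para, sls and Mlc1, and genes at 0) were named after their values were seen.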

Additional observations from a re-analysis of the deposited data

How the results depend on the processing

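Across 14 alternatives, b, e, t, CarT, LOVIT, ort and HisCl1 stayed below 0 and only b was called in all; e, LOVIT, ort, HisCl1 and Hdc were called in none. The number of members called was 2, adding t, with library totals alone (t at -0.33, adjusted p = 0.0478), at least 1 CPM in 3 libraries (-0.32, 0.0471), the DESeq2 Wald test (-0.31, 0.00566), limma-voom (-0.31, 0.0389) and the replicate block (-0.31, 0.0424). Leaving out 1 library gave from 1 to 3 members called, with 3 (b, t and CarT) without EtOH replicate 2. Over these 6 fits t ranged from -0.35 to -0.28, CarT from -0.26 to -0.16 and Hdc from -0.038 to 0.014. Hdc was at 0.095 with photoreceptor scaling and at 0.014 without RU486 replicate 2, neither called. The rhodopsin gene ninaE was at 0.043 with photoreceptor scaling and, with 1 library left out, from -0.11 to 0.015 (without EtOH replicate 1). The reason for these changes was not tested. Of all genes tested, 683 were called, with a range from 341 (without EtOH replicate 3) to 1441 (without EtOH replicate 2), with 440 and 402 without RU486 replicates 2 and 3 and 399 without EtOH replicate 1. Photoreceptor scaling turned the split of 390 higher and 293 lower into 484 and 153. The main fit did not pair libraries by replicate number. Deviations of same-numbered libraries correlated at 0.11, 0.26 and -0.04 across genes, and the replicate block called 872 genes. RU486 replicate 1 correlated best with EtOH replicate 3 (0.33), not with its own number, whereas RU486 replicate 2 correlated best with EtOH replicate 2 (0.26). With 3 libraries per group these values cannot settle whether the numbers mark pairs. Intervals cover counting error and library spread together, and how much of the error of ort and HisCl1 comes from depth was not tested.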
